A study of Rattus norvegicus with 8 samples.

Results

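The genes described here are the chemokines and chemokine receptors of rat lung endothelial cell preparations, 5 days after the rats were given monocrotaline or saline. A gene belonged to the family when its symbol began with Ccl, Cxcl, Cx3cl or Xcl (ligands) or with Ccr, Cxcr, Cx3cr, Xcr or Ackr (receptors), followed by a number. The rule used names only and no measured value. It found 53 genes, 33 ligands and 20 receptors, read by 57 probes, of 26904 genes and unnamed identifiers on the array. Ackr1, Ackr4, Ccr8 and Cxcl3 had no probe matched and were not analysed here.

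Chemokines are small secreted proteins that bind sugar chains on the vessel wall and guide leukocytes along their gradient. Their receptors are G protein-coupled receptors, carried mostly by leukocytes, which turn on integrins so that a rolling cell stops and crosses the endothelium. Inflammatory ligands such as Ccl2 and Cxcl10 are switched on by cytokines, while homeostatic ligands such as Ccl21 are made all the time and lead lymphocytes and dendritic cells to lymphatic vessels and lymphoid tissue. The atypical receptors, named Ackr, bind ligands without G protein signalling and remove or move them.

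Sprague-Dawley rats aged 8 to 10 weeks received a subcutaneous injection of monocrotaline at 60 mg/kg or of saline, and lungs were taken on day 5, with 4 rats in each group. Monocrotaline is a plant alkaloid that injures lung vessels and is widely used to bring on pulmonary hypertension in rats. Cells were drawn from collagenase-digested whole lung with beads carrying an antibody to CD31, and RNA came straight from the beads. CD31 is also present on platelets and on some leukocytes, so the preparation can hold other cells.

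Of the endothelial marker genes, 9 were tested and all were above background on all 8 arrays. Their differences were below 0 for 9 of 9, with a median of -0.69 and 0 called (5 at an unadjusted p under 0.05). Markers of other cells were also read: 14 of 14 listed T and NK cell markers and 8 of 9 monocyte and macrophage markers passed the filter, as did 5 of the 7 neutrophil markers with a probe, 4 of 5 platelet markers, 4 of 5 dendritic cell markers and 5 of 6 mast cell, basophil and eosinophil markers. In these lists Elane, Gp1ba, Itgae and Epx were above background on no array. Levels are per preparation, so more cells of a type and more RNA per cell cannot be told apart. Each rat was read on 1 one-colour array. The share of spots well above background ran from 70.8% to 77.7%, and the number of arrays limits the precision. All arrays lay on 1 slide, with saline in 1 row and monocrotaline in the other, so slide row and group cannot be told apart. Log2 signals correlated at r = 0.965 to 0.986 between saline arrays and at 0.971 to 0.981 between monocrotaline arrays, across genes.

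Every level below is a scaled log2 signal, on which 0 is the 75th percentile of that array and 1 unit is a doubling. A probe's brightness depends on its sequence as well as on its target, so the results compare levels between arrays and not between genes. Mean signal served only in choosing which genes to print array by array. A gene was tested when its probe was well above background on at least 4 of the 8 arrays. Of the family, 45 genes were tested, 27 ligands and 18 receptors, and 39 of them (26 ligands and 13 receptors) were above background on all 8 arrays. Ccr4, the receptor for Ccl17 and Ccl22 on memory T cells, was the 1 gene that passed through a single group, with 0 saline and 4 monocrotaline arrays above background.

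Under monocrotaline 1 ligand, Ccl2, rose at an adjusted p under 0.05 (limma, adjusted over all 19137 genes tested), and no ligand fell. Of all genes tested, 1.37% were called higher and 0.0627% lower, so 1 of 45 family genes (2.22%) was near that background. No receptor was called in limma's fit, while 4 receptors were higher (3 without Ccr4, which was at background on every saline array) and 0 lower at an unadjusted p under 0.05. Among ligands, 4 were higher and 1 lower at that level. Together 8 of 45 family genes (7 without Ccr4) were higher at an unadjusted p under 0.05, against 6.72% of all genes. At that level 1 of 45 was lower, against 7.23%. After normexp correction under the same scaling, 5 were higher. All 4 monocrotaline arrays lay above all 4 saline arrays for 2 family genes, Ccl2 and Cxcl10, against 4.56% of all genes. The reverse held for 0 family genes and 3.99% of all genes. The median log2 difference was 0.14 over the 27 ligands and 0.13 over the 18 receptors, beside -0.026 over all genes. The difference was above 0 for 14 ligands and 12 receptors, against 46.1% of all genes, and for 7 receptors without monocrotaline replicate 3. Both family medians turned below 0 without monocrotaline replicate 3, to -0.090 for ligands and -0.0325 for receptors, and the ligand median did so too after normexp correction (-0.0217) and with no filter on dim probes (-0.0348).

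**Figure D1:**
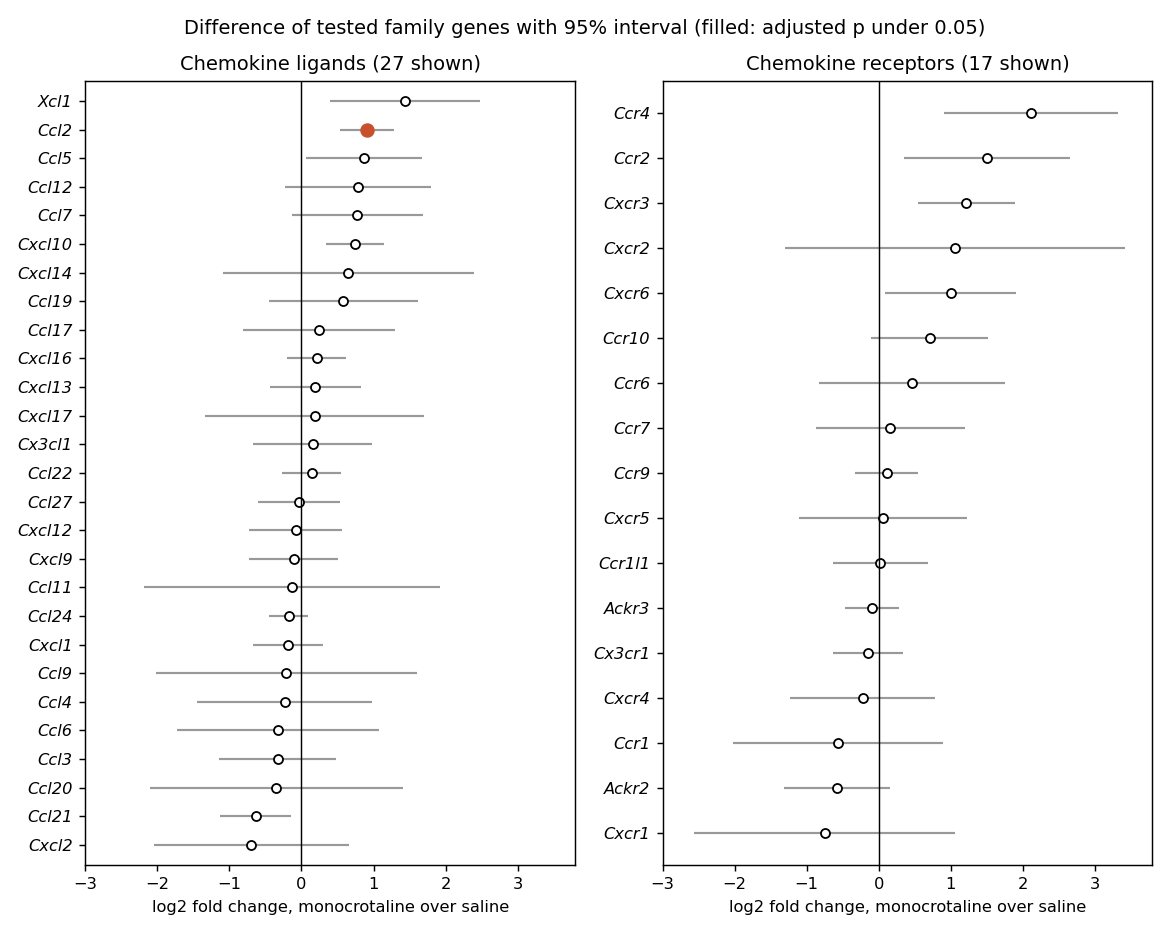
Log2 fold change, monocrotaline over saline (x axis), of tested chemokine ligands (left) and receptors (right, with 1 receptor not shown), with points at the fitted value and lines for its 95% interval from 4 arrays per group. The filled point is Ccl2, the family gene called at an adjusted p under 0.05, at 0.91 with an interval of 0.54 to 1.29. Ccr4 was below background on all 4 saline arrays, so its point and interval are set by signals at background.

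Ccl2, the main chemokine that draws monocytes out of marrow and blood through the receptor Ccr2, was higher in every monocrotaline rat. Its signal was 1.14, 0.93, 0.65 and 1.39 on saline arrays 1 to 4, a mean of 1.03 ± 0.31 (SD, n = 4). On monocrotaline arrays 1 to 4 it was 1.93, 1.97, 1.90 and 1.96, a mean of 1.94 ± 0.032 (SD, n = 4). The groups did not overlap, and the monocrotaline arrays lay far closer together than the saline arrays. The Ccl2 probe was printed on 10 spots per array, like those of Ccl3, Ccl27 and Cxcl1, and most family probes on 2. What this meant for its spread was not tested. The difference was 0.91 ± 0.16 (log2, SE), a 1.88-fold rise with a 95% interval of 0.54 to 1.29 and an adjusted p of 0.0393 (limma). The log2 difference stayed between 0.79 and 1.03 in 18 other settings, but the adjusted p passed 0.05 in 8 of them. Leaving out 1 array ended the call in 7 of 8 cases, with an adjusted p of 0.110, 0.0920 and 0.0769 without saline replicates 1, 2 and 3 and of 0.111, 0.0634, 0.0818 and 0.122 without monocrotaline replicates 1, 2, 3 and 4. Without saline replicate 4 it was 0.0430.

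The other ligands of Ccr2 are Ccl7 and Ccl12, both monocyte attractants. In the RefSeq gene order of assembly GRCr8, Ccl2, Ccl7, Ccl11, Ccl12 and Ccl1 follow each other with no other protein-coding gene between them. Ccl7 read -1.77, -1.56, -2.53 and -0.86 on the saline arrays and -1.19, -1.59, -0.38 and -0.46 on the monocrotaline arrays. The groups overlapped, with monocrotaline replicates 3 and 4 above all saline arrays, and the difference was 0.78 ± 0.40 (log2, SE), with an adjusted p of 0.418. Ccl12 read -2.86, -3.05, -1.82 and -3.13 under saline and -1.55, -2.51, -2.71 and -0.96 under monocrotaline. Monocrotaline replicates 1 and 4 were above every saline array, and replicates 2 and 3 were below saline replicate 3. The Ccl12 difference was 0.78 ± 0.44 (log2, SE), with an adjusted p of 0.465. Of the 3 Ccr2 ligands 1 was called, and the difference was above 0 for 3 of 3 in each setting tried. Ccl11, the eosinophil attractant that lies between them, ranged from -3.21 to -0.77 under saline and from -3.21 to 0.78 under monocrotaline, with a difference of -0.13 ± 0.90 that turned above 0 without saline replicate 1 (0.20), monocrotaline replicate 2 (0.24) or monocrotaline replicate 4 (0.30). Ccl1, a ligand of Ccr8 on T cells, was above background on 0 of 8 arrays.

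Ccr2 itself, the receptor of inflammatory monocytes and of some T cells, was above background on 2 saline and 4 monocrotaline arrays. It read -5.72, -6.35, -6.51 and -6.80 under saline and -5.45, -5.80, -3.38 and -4.73 under monocrotaline. Monocrotaline replicates 1, 3 and 4 exceeded all saline arrays, and replicate 2 lay just below saline replicate 1. The difference was 1.505 ± 0.50 (log2, SE), a 2.84-fold difference with an adjusted p of 0.245. With normexp background correction, which compresses dim signals, it was 0.45, and without monocrotaline replicate 3 it was 1.02. Ccr2 thus did not pass the test that its ligand Ccl2 passed, and the difference between their changes was not tested.

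**Figure D2:**
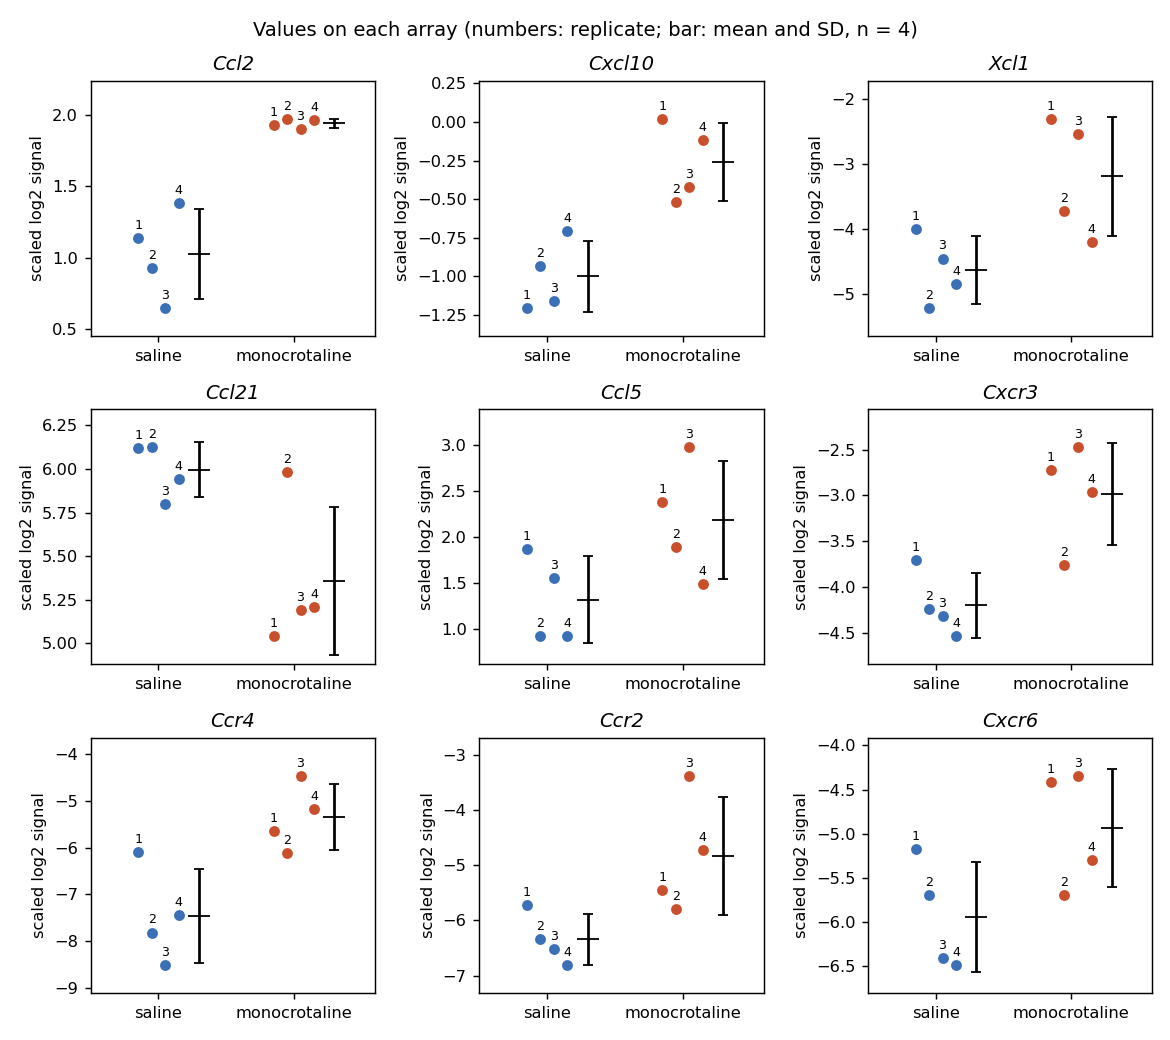
Scaled log2 signal (y axis, 0 is the 75th percentile of the array) on each array for the 9 family genes with an unadjusted p under 0.05, with numbers for replicates and bars for the mean and SD of 4 arrays. The monocrotaline points of Ccl2 lie between 1.90 and 1.97, above every saline point, and the groups overlap for Xcl1, Ccl21, Ccl5, Cxcr3, Ccr4, Ccr2 and Cxcr6.

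Cxcl9, Cxcl10 and Cxcl11 are induced by interferons and attract activated T and NK cells through Cxcr3. In the RefSeq gene order they lie side by side. Cxcl10 read -1.20, -0.93, -1.16 and -0.71 under saline, a mean of -1.001 ± 0.23 (SD, n = 4). Under monocrotaline it read 0.0205, -0.52, -0.42 and -0.11, a mean of -0.26 ± 0.25 (SD, n = 4). Each monocrotaline array was above each saline array. The difference was 0.74 ± 0.17 (log2, SE), a 1.67-fold difference with a 95% interval of 0.34 to 1.14. The adjusted p was 0.0967 (limma) and ranged from 0.0460, with array weights, to 0.273 over 18 settings. Cxcl9 read between -3.32 and -2.32 under saline and between -3.36 and -2.37 under monocrotaline, a difference of -0.11 ± 0.27. Without saline replicate 4 it was 0.076, and without monocrotaline replicate 2 it was 0.0147. The contrast between Cxcl9 and Cxcl10 was not tested. Cxcl11 was above background on 1 saline and 1 monocrotaline array and was not tested.

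The bases before the Cxcl10 start are shown because Cxcl10 was the 1 gene besides Ccl2 whose groups did not overlap. They carry the letters of elements that interferon and inflammatory signals are known to use. The sequence is from RefSeq (GRCr8, chr14:15988816-15989065, + strand) and runs 5′ to 3′. Capitals mark, first, a match to the interferon-stimulated response element (ISRE, the letters GAAA followed, after any 2 bases, by GAAA again) and, second, a match to the kappa-B consensus.
Cxcl10: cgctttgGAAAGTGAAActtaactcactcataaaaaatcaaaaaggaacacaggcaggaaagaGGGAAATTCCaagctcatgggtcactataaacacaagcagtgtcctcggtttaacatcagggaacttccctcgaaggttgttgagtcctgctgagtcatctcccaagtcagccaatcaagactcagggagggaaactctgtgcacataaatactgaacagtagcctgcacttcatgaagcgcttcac
Motifs were searched on both strands in RefSeq windows from 250 bases before to 50 after each start, which were at hand for 42 of the 53 family genes. The ISRE letters were in 3.92% of all 33469 windows and in 2 family windows, those of Ccl19 and Cxcl10. The kappa-B consensus was in 4.18% of all windows and in 8 family windows, those of Cxcl1, Cxcl2, Cxcl6, Cxcl10, Cxcl11, Ccl9, Ccl20 and Ccr3. The interferon gamma-activated site (GAS, letters TTCNNNGAA) was in 8.87% of all windows and in 6 family windows, those of Cxcl9, Cxcl11, Ccl7, Ccl17, Ccl24 and Ccr6. A match is a run of letters and not a measured binding site. Among the kappa-B genes the log2 difference was 0.74 for Cxcl10 and was below 0 for Cxcl1, Cxcl2, Ccl9 and Ccl20. Without monocrotaline replicate 2 it was 0.83 for Cxcl10, -0.007 for Cxcl1, -0.064 for Cxcl2, 0.62 for Ccl9 and 0.35 for Ccl20. These genes were not compared by a test.

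Cxcr3, the receptor for these ligands on activated T and NK cells, was above background on all 8 arrays. It read -3.70, -4.24, -4.32 and -4.54 under saline, a mean of -4.20 ± 0.35 (SD, n = 4), and -2.72, -3.76, -2.47 and -2.97 under monocrotaline, a mean of -2.98 ± 0.56 (SD, n = 4). Only monocrotaline replicate 2 reached into the saline range, just under saline replicate 1. The difference was 1.22 ± 0.30 (log2, SE), a 2.33-fold difference with an adjusted p of 0.113 (limma). Without monocrotaline replicate 2 it was 1.48 with an adjusted p of 0.0282, and after normexp correction it was 0.72.

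Cxcr3 was 1 of 9 tested receptors in a list of those that T cells are known to carry. The list was not complete, and its counts depend on which genes were put in it. Ccr2, which some T cells carry, and Cx3cr1 were listed with the myeloid receptors, and Cxcr4 with Cxcl12. Their differences were 1.505 for Ccr2, -0.15 for Cx3cr1 and -0.22 for Cxcr4. Within the list the difference was above 0 for 9 of 9 (8 of 8 without Ccr4), with a median of 0.46 either way. Of the 9, 0 were called (3 at an unadjusted p under 0.05). The difference was above 0 for 8 of 9 in the deposited table, for 7 of 9 with array weights or without saline replicate 3 or 4, and for 5 of 9 without monocrotaline replicate 3. On the arrays the mean of the 9 receptors, less its saline mean, ran from -0.49 to 0.48 under saline and read 0.45, 0.19, 1.52 and 0.64 under monocrotaline.

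Markers of T and NK cells were also higher on the monocrotaline arrays. Of 14 tested, 3 rose (Cd247, Cd8b and Zap70), against 1.37% of all genes called higher. At an unadjusted p under 0.05, 14 of 14 were higher, against 6.72% of all genes. The difference was above 0 for 14 of 14, against 46.1% of all genes, and the median was 1.66. Their mean ran from -0.90 to 0.34 on saline arrays and from 1.10 to 2.01 on monocrotaline arrays. The part of T and NK cell RNA in the receptors' values was not tested.

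Ccr4 read -6.10, -7.81, -8.50 and -7.43 under saline, always below background, and -5.64, -6.11, -4.46 and -5.17 under monocrotaline. The arrays overlapped only between saline replicate 1 and monocrotaline replicate 2. Set against the lowest signal well above background on each saline array, its mean was at least 2.61-fold higher under monocrotaline. The measured means were -7.46 and -5.35, and the fit's adjusted p was 0.125, which rests on saline signals at background. After normexp correction the log2 difference of Ccr4 was 0.26, so the 2.61-fold bound holds only for the signal without that correction. Its ligands Ccl17 and Ccl22, made mainly by dendritic cells and macrophages, differed by 0.24 ± 0.46 and 0.14 ± 0.18, and by -0.14 and -0.0133 without monocrotaline replicate 3.

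Cxcr6, which memory T cells carry and which binds the membrane ligand Cxcl16, was above background on 3 saline and 4 monocrotaline arrays. Cxcr6 read -5.17, -5.69, -6.41 and -6.48 under saline and -4.41, -5.69, -4.34 and -5.29 under monocrotaline. Monocrotaline replicates 1 and 3 were clear of the saline range, and replicate 4 was between saline replicates 1 and 2. The difference was 1.00 ± 0.40 (log2, SE), with an adjusted p of 0.321, and it was 0.18 after normexp correction. Cxcl16, which holds such cells at the surface of macrophages and endothelium, ranged from 2.02 to 2.28 under saline and from 1.88 to 2.63 under monocrotaline, a difference of 0.21 ± 0.18.

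The other receptors of lymphocytes spread widely within each group. Ccr6, the Ccl20 receptor of B cells and of some helper T cells, read 1.56, 2.37, 0.46 and 1.02 under saline and 1.10, 0.97, 3.21 and 1.97 under monocrotaline. Monocrotaline replicate 3 was the highest, replicates 1 and 2 lay inside the saline range, and the difference was 0.46 ± 0.56. Ccr9, the gut-homing receptor that binds Ccl25, read -0.58, -0.26, -0.29 and -0.71 under saline and -0.68, -0.50, 0.06 and -0.27 under monocrotaline. Its difference was 0.11 ± 0.19. Without monocrotaline replicate 3 the differences of Ccr6 and Ccr9 were -0.008 and -0.0245. Ccr7 and Cxcr5, which guide naive T cells and B cells into lymph nodes, differed by 0.16 ± 0.45 and 0.059 ± 0.51. Both turned below 0 without saline replicate 3 or 4 or monocrotaline replicate 3, reaching -0.18 and -0.39 without the last. Ccr10, a receptor of skin- and mucosa-homing lymphocytes, differed by 0.71 ± 0.36.

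Xcl1, a ligand made by activated T and NK cells, read -4.004, -5.22, -4.46 and -4.86 under saline and -2.31, -3.72, -2.54 and -4.20 under monocrotaline. Monocrotaline replicates 1, 2 and 3 were above every saline array, and replicate 4 was within the saline range. The difference was 1.44 ± 0.46 (log2, SE), a 2.71-fold difference with an adjusted p of 0.219, and it was 0.83 after normexp correction. A second Xcl1 probe gave 1.81 ± 0.59, with the same arrays high and low. Its receptor Xcr1, the mark of cross-presenting dendritic cells, was above background on 0 of 8 arrays with both of its probes.

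Ccl5 is made by T cells, NK cells and platelets and binds Ccr1 and Ccr3. It read 1.87, 0.93, 1.55 and 0.92 under saline and 2.38, 1.89, 2.97 and 1.49 under monocrotaline. Monocrotaline replicates 1, 2 and 3 were above all saline arrays, replicate 2 only just. The difference was 0.86 ± 0.35 (log2, SE), a 1.82-fold difference with an adjusted p of 0.330. Platelet markers (4 tested, 0 called) had a median of 0.30 and a mean from -0.45 to 0.30 under saline and from -0.52 to 1.69 under monocrotaline, and their part in Ccl5 was not tested.

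Ccl3, Ccl4, Ccl6 and Ccl9 are inflammatory CC ligands made largely by macrophages, and their differences were below 0. In the RefSeq gene order Ccl5, Ccl9, Ccl6, Ccl3 and Ccl4 lie next to each other. Ccl3 read 5.65, 6.09, 4.89 and 4.64 under saline and 4.98, 4.36, 5.26 and 5.36 under monocrotaline, a difference of -0.33 ± 0.36. Ccl6 read 4.53, 5.03, 4.85 and 4.05 under saline and 4.93, 2.25, 4.81 and 5.16 under monocrotaline. Monocrotaline replicate 2 stood well below the other 7 arrays for Ccl6, and the difference was -0.33 ± 0.62 with it and 0.35 without it. Ccl4 and Ccl9 differed by -0.23 ± 0.53 and -0.21 ± 0.79, and by 0.23 and 0.62 without monocrotaline replicate 2 (Ccl9 also by 0.0341 without saline replicate 2). Of Ccl5 and these 4 ligands together, 0 were called (1 at an unadjusted p under 0.05). The difference was above 0 for 1 of 5 with all arrays, and for 4 of 5 without monocrotaline replicate 2.

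Cxcl1 and Cxcl2 attract neutrophils through Cxcr2 and lie side by side in the gene order. Cxcl2 read 4.60, 5.03, 4.43 and 3.89 under saline and 4.07, 1.89, 4.66 and 4.55 under monocrotaline. Monocrotaline replicate 2 was again the lowest array and the others lay within the saline range. The difference was -0.70 ± 0.59 (log2, SE), with an adjusted p of 0.642, and -0.064 without monocrotaline replicate 2. Cxcl1 ranged from 1.93 to 2.34 under saline and from 1.43 to 2.45 under monocrotaline, a difference of -0.18 ± 0.21. Its lowest array was also monocrotaline replicate 2. Cxcl6 was above background on 0 of 8 arrays. Of the 2 tested ligands of this group, 0 had a difference above 0 in any setting tried. Without monocrotaline replicate 2, though, Cxcl1 was at -0.007 and the median of the pair at -0.035.

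The bases before the starts of this pair are shown because both hold kappa-B letters. They hold no ISRE letters. Ccl19, which holds ISRE letters as Cxcl10 does, differed by 0.58 ± 0.45 with an adjusted p of 0.608 (limma). Whether any of these letters bear on the signals was not tested. Both come from RefSeq (GRCr8, - strand, 5′ to 3′), Cxcl2 from chr14:17467256-17467505 and Cxcl1 from chr14:17479322-17479571. Capitals mark kappa-B matches, which overlap each other on both strands.
Cxcl2: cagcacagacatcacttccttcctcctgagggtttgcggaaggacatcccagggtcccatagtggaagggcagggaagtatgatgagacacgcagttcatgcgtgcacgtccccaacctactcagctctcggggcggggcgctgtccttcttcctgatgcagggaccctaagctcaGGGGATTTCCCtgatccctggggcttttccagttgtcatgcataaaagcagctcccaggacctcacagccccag
Cxcl1: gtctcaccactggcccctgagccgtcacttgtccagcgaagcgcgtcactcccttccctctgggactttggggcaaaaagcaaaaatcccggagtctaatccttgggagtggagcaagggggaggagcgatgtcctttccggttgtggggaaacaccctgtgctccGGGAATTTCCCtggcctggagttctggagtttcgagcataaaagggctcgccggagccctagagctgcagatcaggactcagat
Counted from the start, where the base just before it is -1, the kappa-B letters begin at base -74 in Cxcl2 and -84 in Cxcl1, against -187 in Cxcl10.

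Among the receptors of myeloid cells, Cxcr1, Ccr1 and Cx3cr1 had their lowest array in monocrotaline replicate 2, and Ccr2 and Cxcr2 in saline replicate 4. Cxcr1, a neutrophil receptor, read 0.56, 0.64, 0.79 and -0.79 under saline and 0.52, -3.01, 0.38 and 0.30 under monocrotaline. Saline replicate 4 and monocrotaline replicate 2 were low and the other 6 arrays lay between 0.30 and 0.79. The difference was -0.75 ± 0.79 (log2, SE), with an adjusted p of 0.718, and 0.0985 without monocrotaline replicate 2. Ccr1, on monocytes and neutrophils, showed the same 2 low arrays, at -2.13 and -3.65, while the other 6 ranged from -1.53 to -0.68. Its difference was -0.56 ± 0.64, and 0.082 without monocrotaline replicate 2. Cx3cr1, the receptor of patrolling monocytes, and its ligand Cx3cl1, which endothelium carries on its surface, differed by -0.15 ± 0.21 and 0.16 ± 0.36. Without monocrotaline replicate 2 these were 0.0093 and -0.0705, and Cx3cl1 was -0.17 without saline replicate 3. Cxcr2 was above background on 1 saline and 3 monocrotaline arrays, with its highest value, -2.53, on monocrotaline replicate 3, and a difference of 1.05 ± 1.03. That difference was 0.0545 without monocrotaline replicate 3 and 0.26 after normexp correction. Of the 5 tested myeloid receptors 0 were called (1 at an unadjusted p under 0.05). The difference was above 0 for 2 of 5, and for 5 of 5 without monocrotaline replicate 2.

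Monocrotaline replicate 2 was the lowest of the 8 arrays for 12 of 45 family genes, against 11% of all genes. They were Cxcr1, Ccr1, Ccr1l1 and Cx3cr1 among receptors and Cxcl1, Cxcl2, Cxcl9, Ccl3, Ccl4, Ccl6, Ccl9 and Ccl20 among ligands. The gap to the next lowest array was 2.21 for Cxcr1, 2.01 for Cxcl2, 1.80 for Ccl6, 1.63 for Ccl20, 1.55 for Ccl9 and 1.51 for Ccr1 (log2). For Ccl2 this array was not low: it read 1.97, beside 1.90 to 1.96 on the other monocrotaline arrays.

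Monocyte and macrophage markers were low on the same array. Over 8 tested markers the mean, less its saline mean, was -1.12 on monocrotaline replicate 2 and 0.19 to 0.79 on the other monocrotaline arrays. It was -0.51 on saline replicate 4 and 0.14 to 0.21 on the other saline arrays. Of these markers 0 were called, 4 of 8 had a difference above 0, and none was at background on all arrays. Lyz2, the marker with the highest mean signal, read 6.22 on monocrotaline replicate 2 and 6.49 to 6.97 on the other 3. Cd68, a lysosomal protein of macrophages, had a wider gap, at 1.09 on monocrotaline replicate 2 and 3.51 to 3.59 on the other 3. Adgre1 read -1.46 on monocrotaline replicate 2 but was lowest on saline replicate 4, at -1.70. The part of macrophage RNA in the family's values was not tested.

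Monocrotaline replicate 3 was the highest array for 19 of 45 family genes, against 15.8% of all genes. These were 12 of 18 receptors and 7 of 27 ligands. The largest values above the gene's own mean included Ccr2, Cxcr2 and Ccl11. On this array the mean of the B cell markers was 1.07 above saline, that of neutrophil markers 1.29 and that of T and NK cell markers 2.01, each the highest monocrotaline value for its list. Airway secretory and ciliated markers (2.93) and fibroblast and mesothelial markers (2.03) were also highest on it. So were markers of mast cells, basophils and eosinophils (0.82) and of dendritic cells (0.53). Means below 0 on it were those of endothelial (-0.81), lymphatic endothelial (-0.83), platelet (-0.52) and smooth muscle and pericyte markers (-0.20). None of the 5 B cell and 5 neutrophil markers was called, and their medians were 0.45 and 0.53. Among the neutrophil markers 4 had a difference above 0, while Fpr1, a receptor for bacterial peptides, differed by -1.26 ± 0.29, with an adjusted p of 0.0968 and every monocrotaline array below every saline array. The part of these cells was not tested. The median range within a group was 1.13 and 1.21 for ligands and 1.30 and 1.57 for receptors, under saline and monocrotaline, against 0.55 and 0.64 for all genes (log2).

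**Figure D3:**
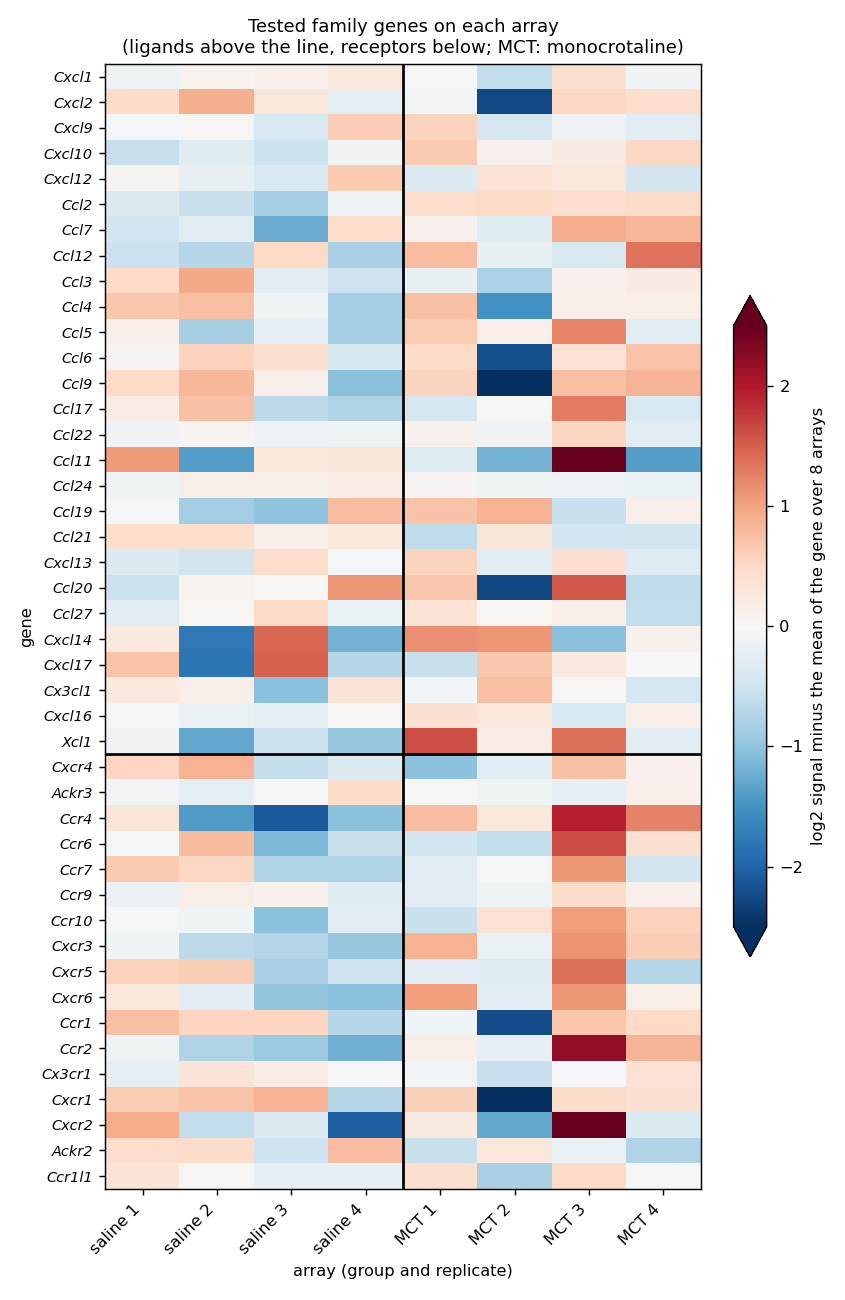
Scaled log2 signal of the tested family genes (rows, with 1 receptor not shown) on each array (columns) minus the gene's mean over 8 arrays, red for above and blue for below, with ligands above the line and receptors below it. Monocrotaline (MCT) replicate 2 is the lowest array for 12 of the 45 genes, among them Cxcl2, Ccl6, Ccl9 and Cxcr1, and replicate 3 is the highest for 19.

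**Figure D4:**
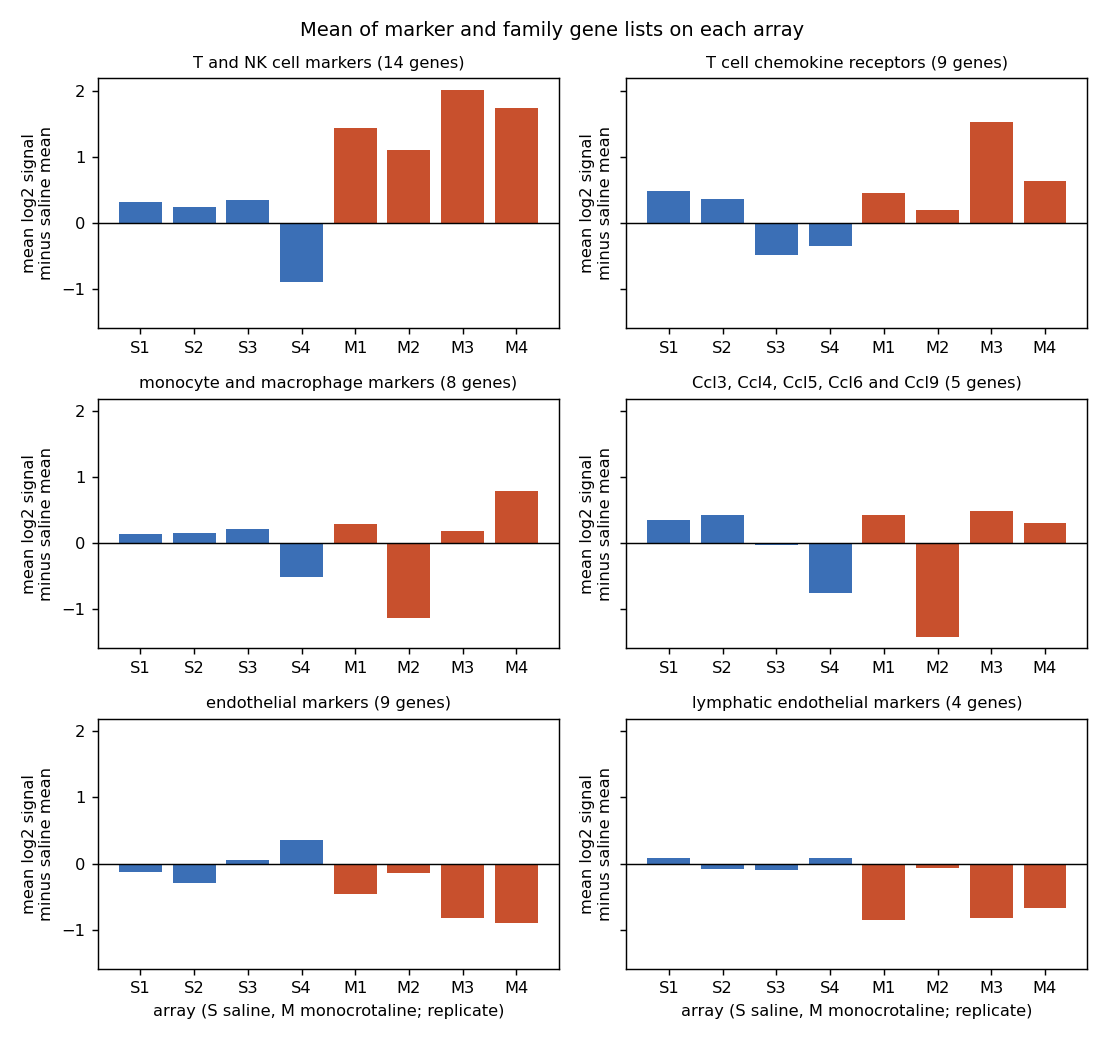
Mean scaled log2 signal of 4 marker lists and 2 family lists on each array (S saline, M monocrotaline, with the replicate number), less the saline mean (bars start at 0). T and NK cell markers lie between 1.10 and 2.01 on the monocrotaline arrays, and on M2 the mean of Ccl3, Ccl4, Ccl5, Ccl6 and Ccl9 reads -1.42 and the monocyte and macrophage markers -1.12.

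Ccl21, made by lymphatic endothelium and lymphoid stroma, was the 1 family gene with a lower value at an unadjusted p under 0.05. It read 6.12, 6.12, 5.80 and 5.94 under saline, a mean of 6.00 ± 0.16 (SD, n = 4), and 5.04, 5.98, 5.19 and 5.21 under monocrotaline, a mean of 5.36 ± 0.43 (SD, n = 4). Monocrotaline replicates 1, 3 and 4 were below all saline arrays and replicate 2 was among them. The difference was -0.64 ± 0.21 (log2, SE), 1.56-fold lower with an adjusted p of 0.251. Without monocrotaline replicate 2 it was -0.85 with an adjusted p of 0.0345. Lymphatic endothelial markers were low on the same arrays: the mean of the 4 tested was -0.85, -0.83 and -0.67 on monocrotaline replicates 1, 3 and 4, -0.065 on replicate 2 and -0.091 to 0.087 under saline. Their differences were below 0 for 4 of 4, with 0 called, 2 at an unadjusted p under 0.05 and a median of -0.52. The general endothelial markers were low on these arrays too. Their mean was -0.46, -0.14, -0.81 and -0.89 on monocrotaline replicates 1 to 4 and -0.29 to 0.36 under saline. The part of lymphatic or other endothelial cells in Ccl21 was not tested.

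The other homeostatic ligands of lymphoid tissue had no unadjusted p under 0.05. Ccl19, which like Ccl21 binds Ccr7, differed by 0.58 ± 0.45, with monocrotaline replicate 2 its highest array at 1.04. Cxcl13, the B cell attractant that binds Cxcr5, differed by 0.19 ± 0.28. Ccl20, which binds Ccr6, was above background on 2 saline and 3 monocrotaline arrays and differed by -0.35 ± 0.77, and by 0.35 without monocrotaline replicate 2.

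Cxcl12 keeps leukocytes and progenitors in place through Cxcr4, and Ackr3 is its scavenging receptor. Its brighter probe read 3.09, 2.84, 2.63 and 3.68 under saline and 2.67, 3.39, 3.30 and 2.55 under monocrotaline, a difference of -0.083 ± 0.28. A second Cxcl12 probe, matched to another transcript, read -0.09, -1.35, 0.74 and -0.34 under saline and 1.70, 1.04, 0.13 and 0.41 under monocrotaline. Its difference was 1.08 ± 0.48, with an adjusted p over probes of 0.368, and the 2 probes were not compared by a test. The brighter probe gave 0.12, 0.0198 and 0.059 without saline replicate 4, monocrotaline replicate 1 and monocrotaline replicate 4. The lowest array of the second probe, saline replicate 2, was also the lowest for fibroblast and mesothelial markers, with a mean of -1.91. Cxcr4 read 3.64, 4.00, 2.51 and 2.77 under saline and 2.10, 2.85, 3.85 and 3.23 under monocrotaline. Its groups overlapped fully, and the difference was -0.22 ± 0.44 (0.0298 without saline replicate 2 and 0.0776 without monocrotaline replicate 1). Ackr3 read 1.43, 1.28, 1.51 and 1.95 under saline and 1.49, 1.39, 1.29 and 1.61 under monocrotaline, a difference of -0.094 ± 0.17, with a 95% interval of -0.47 to 0.29. It was 0.0422 without saline replicate 4.

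Ackr2, the scavenger of inflammatory CC ligands that lymphatic endothelium carries, ranged from -4.27 to -2.98 under saline and from -4.50 to -3.47 under monocrotaline. The difference was -0.59 ± 0.32, with an adjusted p of 0.450. Ccl24, an eosinophil attractant of macrophages that binds Ccr3, read 3.16, 3.43, 3.40 and 3.46 under saline and 3.33, 3.17, 3.12 and 3.11 under monocrotaline. Saline replicate 1 lay among the monocrotaline arrays, and the difference was -0.18 ± 0.12, with a 95% interval of -0.46 to 0.10. Ligands known mainly from epithelium had wide intervals: Cxcl14 differed by 0.65 ± 0.76, Cxcl17 by 0.18 ± 0.67 and Ccl27 by -0.035 ± 0.25. Cxcl17 turned below 0 when saline replicate 2 (-0.40) or 4 or monocrotaline replicate 2 was left out, and Ccl27 turned above 0 without saline replicate 3 or monocrotaline replicate 4 (0.165). Cxcl14 was lowest on saline replicate 2, at -0.36, and highest on saline replicate 3, at 2.87, and Cxcl17 had its extremes on the same arrays, at -3.36 and -0.06. Markers of alveolar epithelium had means of -1.80 and 1.62 on those arrays, and markers of fibroblasts and mesothelium -1.91 and 1.53. The part of these cells was not tested. Ccr1l1, a receptor-like relative of Ccr1, differed by 0.022 ± 0.29, a value that turned below 0 when any of 4 arrays was left out.

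The 8 untested genes were 6 ligands (Ccl1, Ccl25, Ccl26, Ccl28, Cxcl6 and Cxcl11) and 2 receptors (Ccr3 and Xcr1). Of these, 3 were above background on 0 arrays and 5 on 1 to 3 arrays. Ccl25, Ccl26, Ccl28 and Ccr3 were each above background on 1 monocrotaline array and on 0 saline arrays.

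Other genes of the pathway gave few calls. Relatives of the family with other symbol stems numbered 6 tested, with 0 called. The smallest p among them was that of Ccrl2, a receptor-like protein that presents chemerin on endothelium, at -0.67 ± 0.23 with an adjusted p of 0.254. Of 25 tested genes of chemokine receptor signalling 0 were called (1 higher and 1 lower at an unadjusted p under 0.05), with a median of -0.047. Rgs18, a brake on G protein signals in platelets and leukocytes, differed by 0.90 ± 0.34, with an adjusted p of 0.307. Of 13 genes that present or trim chemokines 0 were called (1 higher at an unadjusted p under 0.05), with a median of -0.070. Mmp12, a macrophage elastase that cuts several chemokines, differed by 1.97 ± 0.64, with an adjusted p of 0.238.

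Of 17 tested inducers and regulators of inflammatory chemokines, 1 fell and 0 rose, with a median of -0.10. Nfkbia, the inhibitor that holds NF-kappa-B in the cytoplasm and is itself a target of it, read 4.55, 4.58, 4.71 and 5.00 under saline and 3.59, 3.61, 3.98 and 3.99 under monocrotaline. The groups did not overlap, and the difference was -0.92 ± 0.16 (log2, SE), with an adjusted p of 0.0350. Ifng and Tnf, of the same list, were chosen here after their values were seen. Ifng, the T and NK cell cytokine that induces Cxcl9 and Cxcl10, was above background on 0 saline and 4 monocrotaline arrays, reading -8.16 to -6.64 and -6.44 to -4.71. It thus passed the filter through the monocrotaline arrays alone, as Ccr4 did. Tnf differed by -1.68 ± 0.68, with an adjusted p of 0.331 and its lowest array, at 1.05, again monocrotaline replicate 2.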

How the data were processed

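Total RNA of 8 preparations (10 ng each) was marked with Cy3 and hybridised to 1-colour arrays, per the labels. Per the file headers, Agilent Feature Extraction, release 10.7.3.1, read the slide and the signal columns hold an intensity, background-subtracted within each array and not scaled between arrays. Per the file headers, spot flags hold other values (0 or 1). The submitters' deposited table of values is on a log2 scale: it holds log2 of the quantile-normalized log2 processed signal, as found by setting it against the scanner files (median absolute difference 9.96e-10). Limma 3.6.9 is named in the submitters' processing notes, which give it no role.

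Spots of a probe were averaged after flagged and control spots were left out, and each array was scaled to its 75th percentile. Probes were named through RefSeq transcript accessions (assembly GRCr8): 18006 of 30367 probes matched. The brightest probe that passed the background filter stood for a gene. Groups, taken from the titles, were compared with limma 3.58.1 in R 4.3.3 (two-sided, data.table, version 1.17.8), with Benjamini-Hochberg adjustment over 19137 genes. The script was checked on simulated data.

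The family genes and all lists were chosen with earlier results of these data known. The family holds 1 gene that is not reported here, and the counts and medians include it. Array-by-array values were given for genes called, genes with an unadjusted p under 0.05, and the 5 ligands and 5 receptors with the highest mean signal (a choice of what to print, not a ranking of genes). They were also given for the 5 of each with the largest difference among genes above background on every array of at least 1 group. Cxcl12 was printed array by array outside these rules. Of a pathway list, called genes or the one with the smallest p were named, apart from Ifng and Tnf. The alternatives were quantile and median scaling, normexp correction (offset 50), the deposited table, other filters and probes, array weights, trend and robust options, the replicate number as a block and the omission of each array. Same-numbered saline and monocrotaline arrays did not deviate together (correlations of -0.01, -0.23, -0.33 and -0.20), so the numbers were not taken to pair rats.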

Additional observations from a re-analysis of the deposited data

Results flagged for a closer look

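In 6 of 90 groups of 4 arrays, 1 array lay far below the others by Dixon's test, which flags about 1 group in 20 by chance. Monocrotaline replicate 2 was low for Ccl6 (2.25, next 4.81), Ccl9 (-2.14, next 1.02) and Cxcr1 (-3.01, next 0.30). Saline replicate 4 was low for Ccr1 (-2.13, next -0.89) and Cxcr1 (-0.79, next 0.56). Saline replicate 3 was low for Cx3cl1 (0.93, next 2.14).

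Of the untested genes, Ccl25, Ccl26, Ccl28 and Ccr3 were each above background on 1 monocrotaline array and on 0 saline arrays. The array was monocrotaline replicate 4 for Ccl25 and Ccl26, replicate 1 for Ccl28 and replicate 3 for Ccr3.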

How the results depend on the processing

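The rise of Ccl2 kept its direction in all 18 settings run and passed the threshold in 8. The count of called ligands, 1 as reported, was 0 with median scaling (adjusted p of Ccl2 0.0891), with no filter (0.0666) and with the replicate block (0.156), 2 with array weights (Ccl2 and Cxcl10), and 0 to 1 when single arrays were left out. Called ligands that fell (Ccl21, without monocrotaline replicate 2) and called receptors that rose (Cxcr3, without the same array) each numbered 0 to 1 when single arrays were left out. Over all genes, the 262 called higher became 0 with the replicate block and 11 to 273 without single arrays. The 12 called lower became 21 with normexp under either scaling, 59 with array weights, 0 with the replicate block and 0 to 93 without single arrays. The block had no support from the correlations of same-numbered arrays. The family medians moved from -0.090 to 0.24 for ligands and from -0.0325 to 0.33 for receptors without single arrays. Leaving out single arrays turned the sign of 22 of the 45 tested family genes, none of them called. Among those given array by array these were Ackr3 (-0.18 to 0.0422), Ccl6 (-0.62 to 0.35), Ccr6 (-0.008 to 0.80), Ccr9 (-0.0245 to 0.22), Cxcr1 (-1.12 to 0.0985) and Cxcr4 (-0.51 to 0.0776, and 0.0298 without saline replicate 2). The other 16 are Cxcl12 and genes given by their difference or range alone. With no filter the median of all genes moved to -0.10. Normexp lowered the differences of dim genes, to 0.26 for Ccr4, 0.45 for Ccr2 and 0.18 for Cxcr6. It also lowered those of Cxcr2 to 0.26, Cxcr3 to 0.72 and Xcl1 to 0.83. The causes were not tested.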
